A study of Mus musculus with 4 samples.

Results

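Complement genes were followed in the soleus of *mdx* mice, which lack dystrophin, after infusions, once a month up to the 12-month endpoint, of mouse cardiosphere-derived cells (mCDCs, cardiac stromal cells grown from a mouse heart) or of vehicle. 9 genes were taken by their symbols from the 24054 rows of the count table: *C1qa*, *C1qb*, *C1qc*, *C2*, *C3*, *C4b*, *Serping1*, *C3ar1* and *C5ar1*. All 9 passed the filter on low counts that left 13652 genes for testing. The question was whether the RNA of these genes differed between mCDC and vehicle muscles.

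All mice were female and of the C57BL/10ScSn-DMDmdx/J strain, so that the vehicle controls carry the dystrophin mutation too and no healthy muscle is part of the comparison. Femoral vein injections began at 8 weeks of age and muscles were taken at the 12-month endpoint. The mCDC group received passage 5 cells from the heart of a C57BL/10ScSn/J mouse, and the vehicle group received the medium (IMDM) alone. Each group had 2 libraries, called mCDC 1, mCDC 2, vehicle 1 and vehicle 2 and given in this order throughout, with 22481391 to 27187425 expected counts each (counts in which a read that fits several transcripts is divided among them). No source states outright that the 2 libraries of a group came from separate mice, so p-values measure the spread between these samples. Muscle fiber genes were abundant in every library, with a summed level of 131000 to 147000 CPM (counts scaled to a library size common to all libraries) over 10 markers that include the slow myosin *Myh7*.

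Complement is a cascade of plasma and tissue proteins that tags damaged cells and microbes. In the classical pathway C1q binds a target and its partner proteases C1r and C1s cleave C4 and C2, which form an enzyme that cleaves C3. Fragments of C3 stay on the target, while the small fragments C3a and C5a call in leukocytes through the receptors C3aR and C5aR1. Tissue macrophages are a main source of C1q, whereas stromal cells, endothelium and fat make much of the locally produced C1r, C1s, C3 and regulators. In dystrophic muscle, macrophages and deposited complement accompany fiber damage.

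None of the 9 genes was called different between mCDC and vehicle muscles when a call needed more than 1.5-fold and p below 0.05 before adjustment. These thresholds follow the study's methods. By that rule 1.26% of all tested genes were called higher and 2.74% lower. For *C3* and *C2* every mCDC value lay under every vehicle value, a pattern that 19.4% of all tested genes showed. The other 7 overlapped between the groups, and none showed the opposite pattern, which 19.2% of all tested genes did. 7 of the 9 log2 fold changes lay below 0, as did 51.6% of those of all tested genes, with a median of -0.23 beside -0.01 over all tested genes. Adjusted p-values of the 9 genes (edgeR quasi-likelihood test, Benjamini-Hochberg over all 13652 genes) ran from 0.695 to 0.969, and an exact permutation test of 2 libraries against 2 cannot go below 0.333. Without vehicle 2 the median of the 9 was 0.22, and without vehicle 1 it was -0.40. When each library was left out in turn, none of the 9 was called higher, where 2.84% of all genes were called higher without mCDC 1, 0.800% without mCDC 2, 1.95% without vehicle 1 and 1.56% without vehicle 2. None was called lower without mCDC 1 or vehicle 2, where 3.89% and 2.53% of all genes were, and 1 gene was called lower in each of the other 2 analyses, as described with *C3* and *C1qb*.

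**Figure D1:**
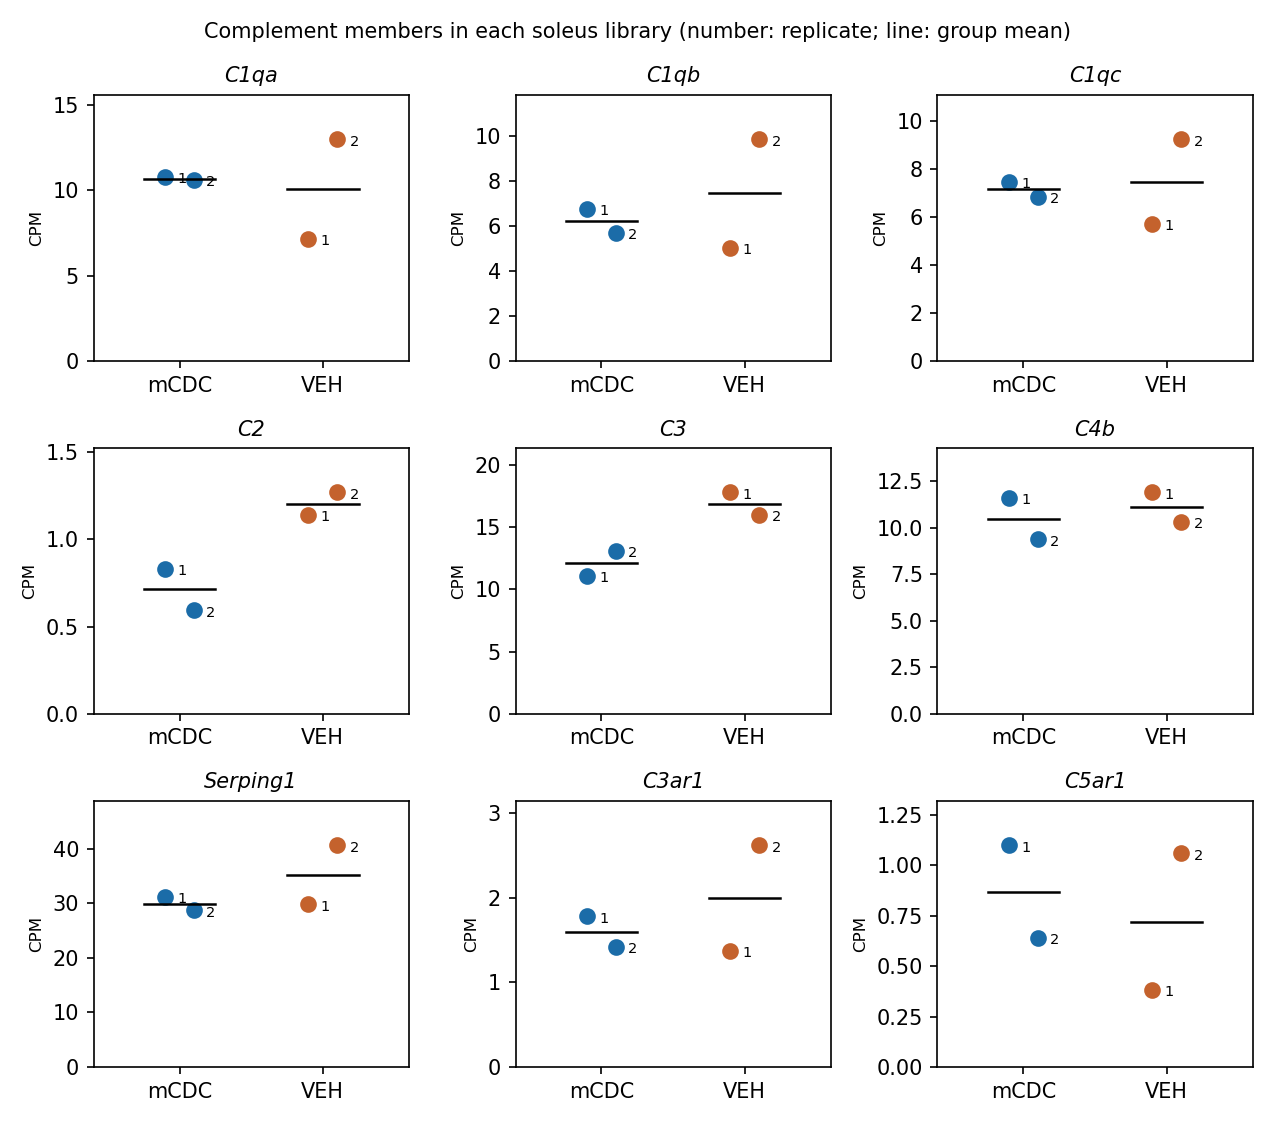
Level of each of the 9 complement genes in CPM (vertical axis, from 0, a scale of its own for each gene) in the 2 mCDC and 2 vehicle (VEH) soleus libraries. Points are libraries with their replicate number and lines are group means. *C2* and *C3* do not overlap between the groups, while for the C1q chains vehicle 1 is the lowest and vehicle 2 the highest library.

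*C1qa*, *C1qb* and *C1qc* encode the 3 chains of C1q and lie side by side on the minus strand of chromosome 4 (GRCm38), at chr4:136895917-136898803, chr4:136880129-136886187 and chr4:136889804-136893065. Only 3616 bases separate *C1qb* from *C1qc* and 2851 bases separate *C1qc* from *C1qa*. None of their 31-base words occurs in a transcript of another gene, so their reads are not shared.

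*C1qa* had 10.8 and 10.6 CPM with mCDCs and 7.17 and 13.0 with vehicle. *C1qb* had 6.78 and 5.71 CPM after mCDCs, against 5.04 and 9.86 after vehicle. *C1qc* had 7.46 and 6.85 CPM with mCDCs and 5.72 and 9.24 with vehicle. In each case both mCDC libraries lay between the 2 vehicle libraries. The log2 fold change of *C1qa* was 0.08 (standard error [SE] 0.28, 95% interval -0.55 to 0.72, adjusted p = 0.961), that of *C1qb* -0.25 (SE 0.32, interval -0.99 to 0.48, adjusted p = 0.860) and that of *C1qc* -0.06 (SE 0.26, interval -0.66 to 0.54, adjusted p = 0.969). These intervals reach past 1.5-fold, which is 0.58 on the log2 scale, in the lower direction for *C1qb* and *C1qc* and in the higher direction for *C1qa*.

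The wider gap was inside the vehicle group. Vehicle 2 had 1.81-fold the *C1qa*, 1.96-fold the *C1qb* and 1.61-fold the *C1qc* of vehicle 1, while mCDC 1 and mCDC 2 differed by 1.02-, 1.19- and 1.09-fold. The gap of *C1qb* between the vehicle libraries was larger than that of 94.5% of all tested genes. The direction depended on which vehicle library was left out. Without vehicle 1, *C1qb* was called lower, at a log2 fold change of -0.65, where 5.97% of all genes were called lower. Without vehicle 2, *C1qb* was at 0.31, *C1qc* at 0.32 and *C1qa* at 0.57. Without vehicle 1, *C1qa* was at -0.28 and *C1qc* at -0.36.

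*C3* encodes the protein on which all activation routes converge and lies at chr17:57203970-57228136 on the minus strand. It had 11.1 and 13.1 CPM after mCDCs, against 17.8 and 16 after vehicle. Both mCDC libraries lay below both vehicle libraries, and the 2 libraries of each group were close to each other. The group means were 12.1 ± 1.4 CPM (SD, n = 2) and 16.9 ± 1.3 CPM (SD, n = 2). The log2 fold change was -0.49 (SE 0.18, 95% interval -0.89 to -0.08), a level 0.714-fold that of vehicle muscles. The unadjusted p was 0.025, a value below 0.05 shared with 6.94% of all tested genes, and the adjusted p was 0.695 with edgeR's quasi-likelihood test. *C3* stayed below 0 with each library left out in turn, from -0.60 to -0.37, and was called lower only without mCDC 2, where 1.69% of all genes were called lower.

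The 250 bases upstream of the RefSeq start of *C3* (GRCm38.p6, minus strand, chr17:57228137-57228386) are shown because *C3* had the smallest p of the 9 genes. Capitals mark the only match among the motifs searched, a C/EBP core.
C3 upstream: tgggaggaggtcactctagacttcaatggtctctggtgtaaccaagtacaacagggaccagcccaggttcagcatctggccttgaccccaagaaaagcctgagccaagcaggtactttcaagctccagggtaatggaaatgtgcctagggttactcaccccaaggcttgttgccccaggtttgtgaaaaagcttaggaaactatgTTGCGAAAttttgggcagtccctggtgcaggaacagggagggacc
The match to TTGCNNAA starts 45 bases before the start, and 9.56% of 32851 windows of the same length hold this motif on either strand. The other motifs searched on both strands were the core of PU.1, a factor of macrophage genes (GAGGAAG, in 10.6% of windows), an interferon-stimulated response element core (2.98%), the GAS element bound by STAT factors (TTCNNNGAA, 7.02%) and TATAAA (12.4%). Among the 5 complement genes with a window, *C1qc* held 1 PU.1 core and *C3ar1* 1 TATAAA, and *C1qb* and *C5ar1* held no match. *C1qa*, *C2*, *C4b* and *Serping1* were not matched. *Cebpb*, which encodes a C/EBP factor of inflammatory genes, had 235 and 233 CPM with mCDCs and 285 and 334 with vehicle, without overlap between the groups, as 19.4% of all tested genes. Its log2 fold change was -0.41 (SE 0.14, adjusted p = 0.684) and did not reach 1.5-fold. A link between *Cebpb* and the level of *C3* was not tested. *Cebpd*, which encodes a related factor, had 9.88 and 12.7 CPM against 27.8 and 10.9, which overlapped. Of 14 interferon and acute phase genes that include it, 9 were tested and *Lcn2* alone was called, higher at 0.720 and 1.10 CPM against 0.267 and 0.109, where 1.26% of all tested genes were called higher.

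*C2*, the protease that joins C4b in the classical C3 convertase (chr17:34862604-34898265, minus strand), was among the least abundant of the 9 genes. It had 22 and 13 counts after mCDCs, against 30 and 35 after vehicle, or 0.833 and 0.594 CPM against 1.14 and 1.27. The groups did not overlap, but the exact 95% Poisson interval of the 22 counts of mCDC 1, 13.8 to 33.3, contains the 30 counts of vehicle 1, and these intervals cover counting error only. The log2 fold change of -0.74 was the largest in size of the 9 (SE 0.39, 95% interval -1.65 to 0.16) with an unadjusted p of 0.095 and an adjusted p of 0.735. It ran from -1.02 to -0.53 with each library left out in turn. Of the 31-base words of *C2*, 40.8% also occur in other genes, nearly all in Gm20547, which has no row in the table used here. On the opposite strand 134 words are shared with *Zbtb12*, which had 272 to 355 counts per library. The counts of *C2* and *Zbtb12* were whole in every library, so no read divided between them was seen, although the sources do not state whether counting used strand.

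*C4b* encodes C4, whose larger fragment C4b anchors the classical C3 convertase (chr17:34728380-34743882, minus strand). It has a near-identical copy 65209 bases away, *C4a* (chr17:34809092-34823464), which the annotation of this genome lists as a processed transcript without a coding sequence. Their longest transcripts were identical at 96.1% of 5367 aligned bases, and 48.3% of the 31-base words of *C4b* occur in *C4a*. The stretch of 60 bases inside 1 exon in which the copies differ most shows how reads can be assigned. Both stretches lie in exon 21 on the minus strand of GRCm38, at chr17:34735430-34735489 for *C4b* and chr17:34816086-34816145 for *C4a*, and capitals mark the 13 bases that differ.
C4b: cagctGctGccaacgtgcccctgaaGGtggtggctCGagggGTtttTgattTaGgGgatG
C4a: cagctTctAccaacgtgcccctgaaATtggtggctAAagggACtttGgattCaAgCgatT
*C4b* had 305.41 and 205.23 expected counts with mCDCs and 311.94 and 282.66 with vehicle, and *C4a* had 6.59, 9.77, 8.06 and 18.34. Their sums were whole in every library, 312, 215, 320 and 301, so the fractions came from reads divided between these copies. *C4a* took 2.11% to 6.09% of the sum.

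In CPM, *C4b* was at 11.6 and 9.37 after mCDCs and 11.9 and 10.3 after vehicle, which overlapped. The log2 fold change was -0.08 (SE 0.20, 95% interval -0.54 to 0.37, adjusted p = 0.934), and it changed sign without mCDC 2, at 0.06, and without vehicle 1, at 0.03. Summed with *C4a* it was -0.10. The interval of *C4b* lies inside 1.5-fold in both directions. Whether the fold changes of *C3* and *C4b* differ from each other was not tested.

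*Serping1* encodes the C1 inhibitor, which blocks C1r and C1s (chr2:84765387-84775444, minus strand). It had 31.1 and 28.7 CPM after mCDCs, against 29.8 and 40.6 after vehicle. Vehicle 2 was high and the other 3 libraries were close together. The log2 fold change was -0.23 (SE 0.18, 95% interval -0.65 to 0.18, adjusted p = 0.782). Without vehicle 2 it was 0.0041 and without vehicle 1 it was -0.44.

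*C3ar1*, the C3a receptor of myeloid cells (chr6:122847138-122856161, minus strand), had 1.78 and 1.42 CPM with mCDCs and 1.37 and 2.62 with vehicle. Its log2 fold change was -0.32 (SE 0.38, 95% interval -1.21 to 0.57, adjusted p = 0.858), and 0.22 without vehicle 2. *C5ar1*, the receptor for C5a (chr7:16246743-16259540, minus strand), had 29 and 14 counts after mCDCs, against 10 and 29 after vehicle. The groups overlapped, and the 95% Poisson interval of the 10 counts ran from 4.80 to 18.4. The log2 fold change of *C5ar1* was 0.29 (SE 0.55, 95% interval -0.99 to 1.57, adjusted p = 0.916), with -0.25 without vehicle 1, -0.18 without mCDC 1 and 1.2 without vehicle 2.

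Between genes, levels were compared per kilobase of the longest transcript, over all 4 libraries. *Serping1* was highest at 18.4 ± 3.1 CPM per kilobase (SD, n = 4), above *C1qa* at 9.98 ± 2.31 (SD, n = 4) in 4 of 4 libraries without overlap. *C1qb* and *C1qc*, at 6.29 ± 1.96 and 6.08 ± 1.22 (SD, n = 4), were not separated, since *C1qb* was the higher in 2 libraries. *C3* followed at 2.83 ± 0.58 (SD, n = 4) and *C4b* at 2 ± 0.22 (SD, n = 4). *C3* was above *C4b* in 4 of 4 libraries, although the ranges overlapped. *C3ar1*, *C2* and *C5ar1* were lowest, at 0.417, 0.364 and 0.312 CPM per kilobase, with overlapping ranges. The C1q chains were thus present at a higher level per length than *C3* and *C4b* in all 4 libraries, mCDC and vehicle alike.

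The rest of the cascade was described with 57 complement genes that include the 9. Of these, 56 had a row, 7 had no count in any library and 30 were tested. Among the 30 described here, 1 was called higher, beside 1.26% of all tested genes, and it encodes a soluble regulator. The median log2 fold change of the 30 was -0.13. *Clu*, which encodes clusterin, an inhibitor of the membrane attack complex and an extracellular chaperone, had 44.7 and 57.3 CPM with mCDCs and 26.1 and 28.7 with vehicle. The groups were well apart, with a log2 fold change of 0.90 (SE 0.17, 95% interval 0.51 to 1.28, unadjusted p = 6.7e-04, adjusted p = 0.413). With each library left out in turn, the log2 fold change of *Clu* ran from 0.71 to 1.06. With all libraries, its adjusted p was 0.009 with DESeq2. Under the edgeR alternatives it ran from 0.332 (replicate block) to 0.774 (no filter on low counts).

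**Figure D2:**
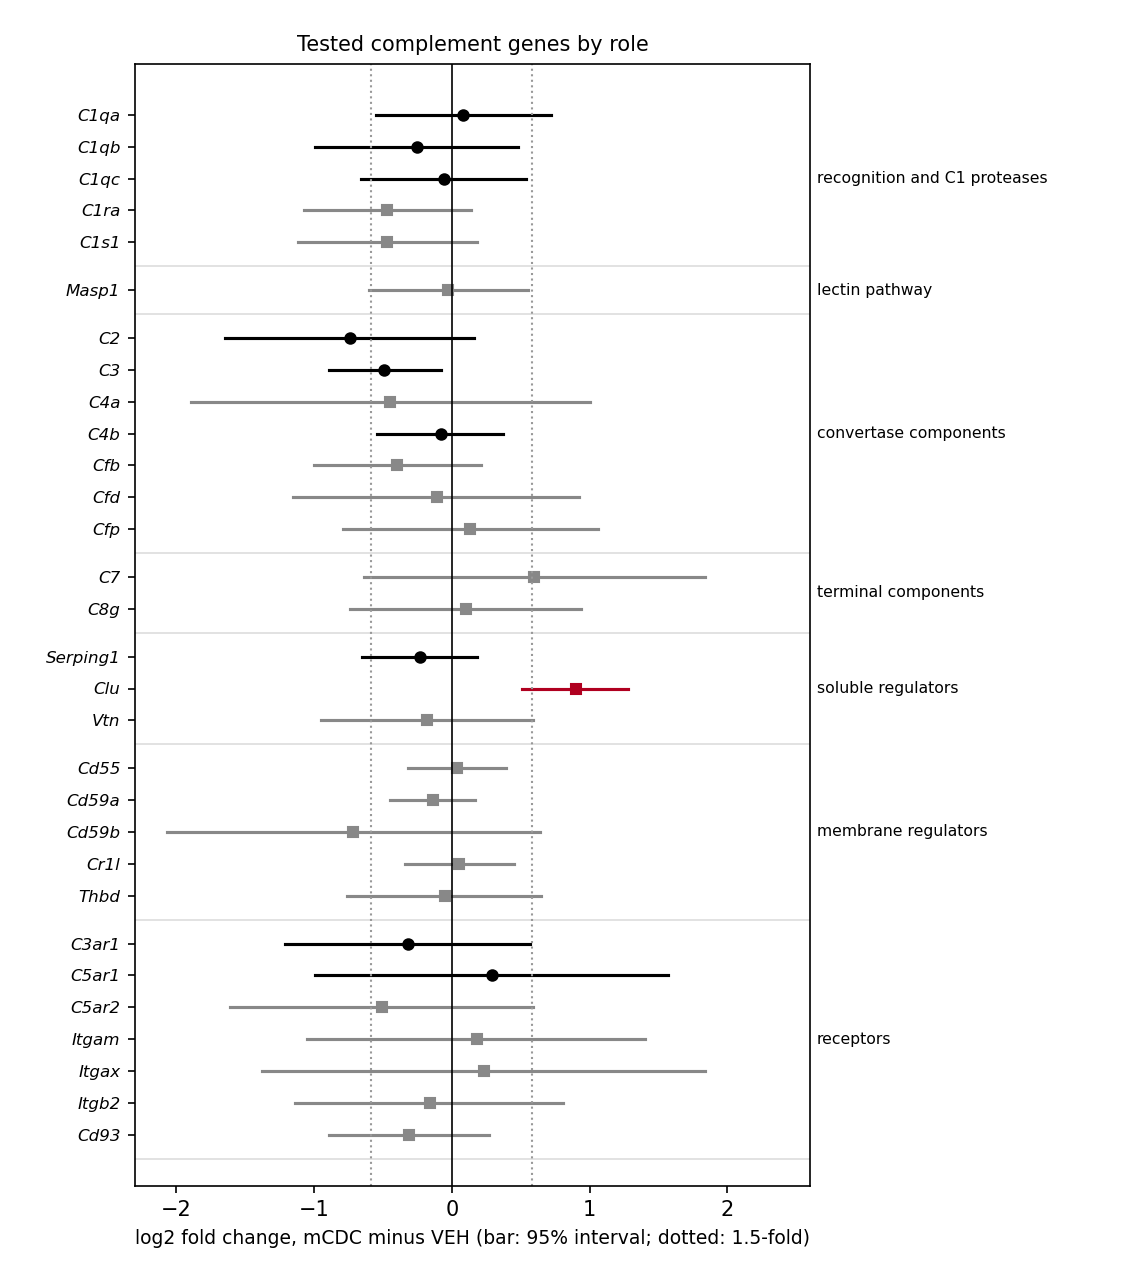
Log2 fold change (horizontal axis, mCDC minus vehicle) of 30 tested complement genes grouped by role. Bars are 95% intervals, circles the 9 genes, squares other list members, red a called gene and dotted lines a 1.5-fold change. *Clu* (0.90) lies to the right of the 1.5-fold line, and the interval of *C3* (-0.89 to -0.08) lies below 0 but crosses the 1.5-fold line.

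The proteases that work with C1q were not called. *C1ra* had 8.48 and 7.49 CPM with mCDCs and 8.28 and 13.8 with vehicle, and *C1s1* had 21.3 and 17.5 against 18.6 and 35.1, each at 0.723-fold. As for the C1q chains, vehicle 2 was the high library. Some counts of both were fractional, so a few reads were divided with other genes. Both were called lower without vehicle 1, at -0.79 for *C1ra* and -0.85 for *C1s1*, as were *Cd93* at -0.66 and *Vtn* at -0.62, where 5.97% of all genes were called lower. Among the alternative pathway genes, *Cfb*, encoding factor B, had 4.36 and 3.29 CPM against 4.39 and 5.71 in the vehicle libraries. The groups did not overlap, as for 19.4% of all tested genes, but mCDC 1 and vehicle 1 had 115 counts each. The log2 fold change of *Cfb* was -0.40, with a 95% interval of -1 to 0.21. *Cfp*, encoding properdin, had 3.18 and 5.02 against 2.29 and 5.13 CPM.

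*Cfd* encodes factor D, the protease that cleaves factor B, also called adipsin for its source in fat cells. Its level was 27.9 and 25.6 CPM in the mCDC libraries, 44.6 in vehicle 1 and 13.3 in vehicle 2. Here the vehicle libraries were the extremes in the opposite order to C1q. *Adipoq*, a defining gene of fat cells, was likewise highest in vehicle 1 and lowest in vehicle 2, with 3.33 and 3.33 CPM in the mCDC libraries, 5.46 in vehicle 1 and 1.49 in vehicle 2. The mean log2 level of 8 adipocyte markers was 0.87 above its average in vehicle 1 and 0.75 below it in vehicle 2. Their summed level was 540 and 368 CPM with mCDCs and 620 and 613 with vehicle, most of it from *Plin4* (491 and 329 against 560 and 572 CPM). None of the 8 was at 0 in all libraries. None was called, where 1.26% of all tested genes were called higher and 2.74% lower. *Plin4* and *Lipe* were not higher in vehicle 1 than in vehicle 2. The part of fat tissue in the *Cfd* values was not tested. *Cfd* had a log2 fold change of -0.11 over all libraries, 1.02 without vehicle 1 and -0.74 without vehicle 2. With the replicate number as a block it was 0.12, and with a trend in gene length and GC content removed it was -0.29.

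Regulators on the cell membrane were not called. *Cd59a*, which blocks the membrane attack complex, was the most abundant in CPM, at 79.1 and 69.6 after mCDCs and 79.6 and 84.2 after vehicle, with a 95% interval of the log2 fold change of -0.45 to 0.17. *Cd55* and *Cr1l*, which take C3 convertases apart or have C3b cleaved, had intervals of -0.32 to 0.39 and -0.34 to 0.45, which lie inside 1.5-fold. Most terminal components had few or no counts. *C8a* and *C8b* had 0 counts in all libraries, *Hc*, which encodes C5, had at most 2, *C7* had 8 to 13 and *C8g* had 23 to 27. *C7* and *C8g* were tested and not called, with both mCDC values in CPM above both vehicle values, as for 19.2% of all tested genes. Of 8 lectin pathway genes *Masp1* alone was tested, with 5.16 to 7.57 CPM over the 4 libraries. Leukocyte complement receptors were low, with *Itgam* at 0.645 to 1.89 CPM, *Itgb2* at 0.954 to 1.93 CPM and *Vsig4*, the C3b receptor of resident macrophages, at 1 to 6 counts per library.

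**Figure D3:**
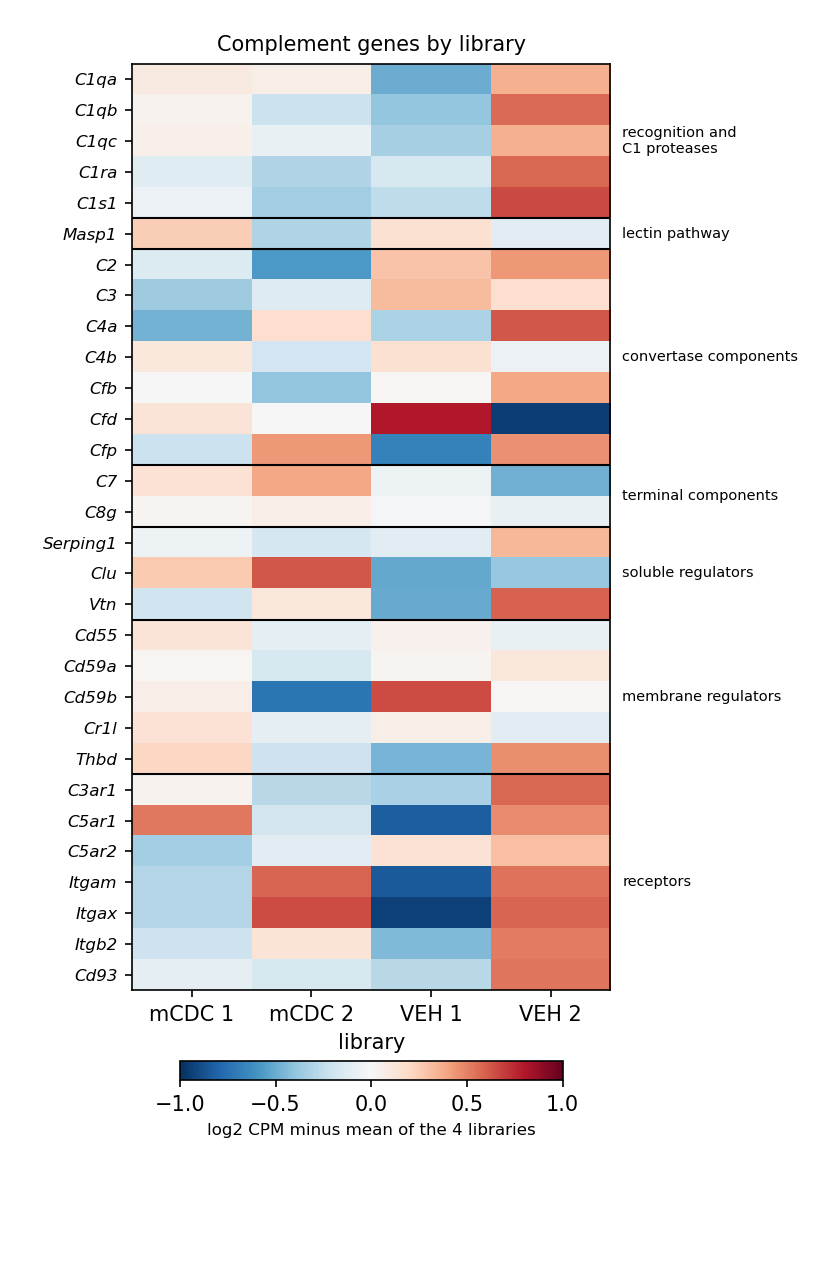
Log2 CPM of 30 tested complement genes (rows, by role) in each library (columns), as the difference from the gene's mean over the 4 libraries; colours run from -1 (blue) to 1 (red). Vehicle 2 is the highest library for 17 of the 30 genes, while *Cfd* is highest in vehicle 1 and *Clu* in both mCDC libraries.

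Vehicle 2 was the highest library for 6 of the 9 genes. Vehicle 1 was the lowest for 5 of the 9 (55.6%), against 26.4% of all tested genes. Vehicle 2 was also the highest for 17 of the 30 tested list genes (56.7%), against 29.4% of all tested genes. The median gap between the vehicle libraries was 0.68 on the log2 scale for the 9 genes and 0.23 for all tested genes. Between the mCDC libraries it was 0.24 and 0.19. The summed markers of macrophages, endothelium, fibro-adipogenic cells and red blood cells were also highest in vehicle 2, although *Cd68*, *Cd14*, *Aif1* and *Lgals3* were highest in mCDC 2 and *Cd163* in vehicle 1. The 14 macrophage markers summed to 62.9 and 76.6 CPM after mCDCs, against 63.7 and 95 after vehicle. Of 13 tested, *Cd68* was called higher, although its groups overlapped (4.13 and 15.4 CPM against 2.71 and 4.15), and *Csf1r* was called lower (5.11 and 3.93 CPM against 5.57 and 8.84), with a median log2 fold change of -0.19, and none of the 14 was at 0 in all libraries. The 8 endothelial markers summed to 166 and 139 CPM against 139 and 299, and the 10 fibro-adipogenic markers to 748 and 612 CPM against 712 and 1140. In these lists *Vwf* and *Flt1*, and *Pdgfra* and *Lum*, were called lower and none higher, where 2.74% and 1.26% of all tested genes were. The 5 erythroid markers summed to 270 and 279 CPM against 244 and 454, and none was at 0 in all libraries. *Hba-a2* was called lower, where 2.74% of all tested genes were. Its counts and those of *Hba-a1* were fractional, so some reads were divided between genes, and the call may depend on that division. *Hba-a1* had 234 and 243 CPM against 199 and 369, which overlapped, and was not called. The part of these cells or of blood in the complement values was not tested. In bulk muscle, fewer cells of a type and less RNA per cell cannot be told apart.

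Set against the summed macrophage markers of the same library, the log2 ratio of *C1qa* was -2.54 and -2.86 after mCDCs and -3.15 and -2.87 after vehicle, highest in mCDC 1 and lowest in vehicle 1, with mCDC 2 and vehicle 2 nearly equal. That of *C3* was -2.50 and -2.55 against -1.84 and -2.57, where vehicle 1 alone stood apart. *Lgals3* was the largest part of these marker sums, at 17.4 and 26.5 CPM after mCDCs and 24.3 and 25.6 after vehicle. In mCDC 2, *Cd68* added 15.4 CPM, against 2.71 to 4.15 in the other libraries. Relative to the median macrophage marker, the log2 fold change of *C3* was -0.30 in place of -0.49. The median log2 fold change was -0.43 over the fibro-adipogenic markers, -0.53 over the endothelial markers and -0.30 over the adipocyte markers, with all 10, 8 and 8 below 0, as were 51.6% of all tested genes. The liver makes most plasma complement, and 8 hepatocyte markers summed to 4.62 to 5.62 CPM, mostly *Serpina1a*, with *Apoa1*, *Ttr*, *Fgb* and *Fga* at 0 counts in all libraries and *Alb* at 0 to 2 counts. Neutrophil markers summed to 0.921 to 1.9 CPM, mostly *Csf3r*, with *Camp* at 0 in all libraries and *S100a8* at 0.114 and 0.320 CPM with mCDCs and 0.0382 and 0 with vehicle.

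**Figure D4:**
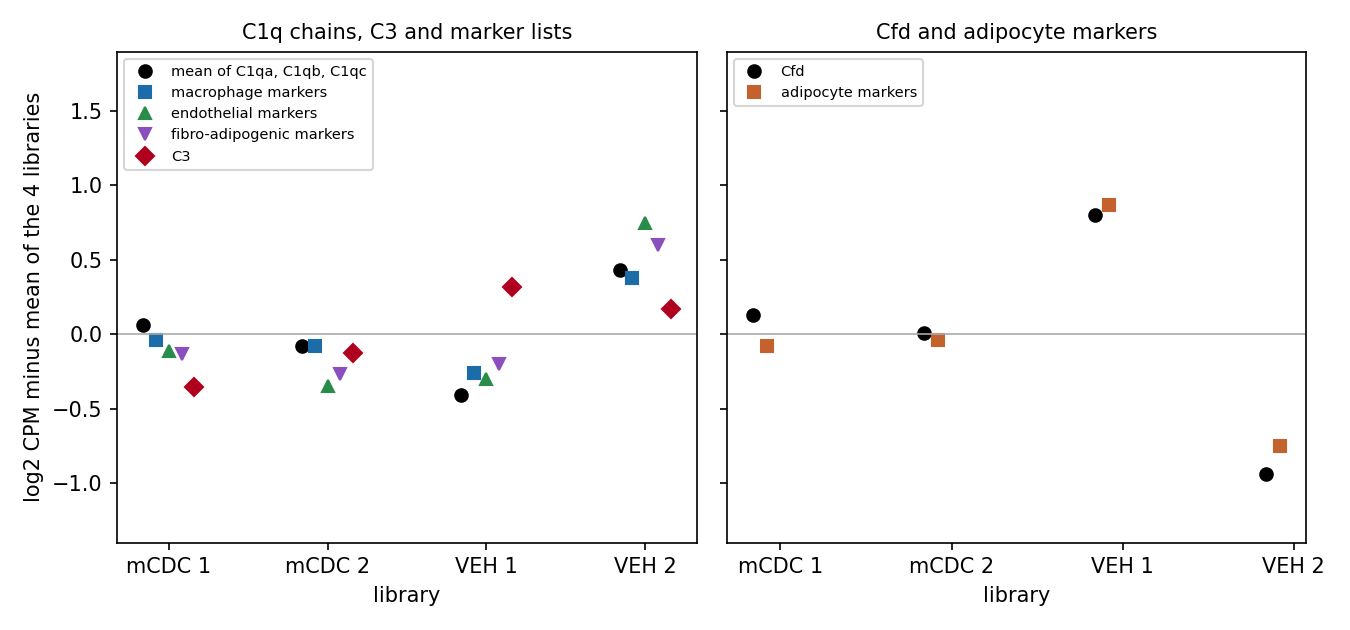
Log2 CPM in each library as the difference from the mean over the 4 libraries, for the C1q chains, *C3* and marker lists (left) and for *Cfd* and 8 adipocyte markers (right). Points are a gene or the mean of a list. The C1q chains (0.43) and the macrophage, endothelial and fibro-adipogenic lists (0.38, 0.75 and 0.60) are highest in vehicle 2, whereas *Cfd* and the adipocyte list (0.87) are highest in vehicle 1.

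The mean profile of the C1q chains over the 4 libraries was 0.06 and -0.08 after mCDCs and -0.41 and 0.43 after vehicle, in log2 CPM around each gene's average. By Euclidean distance to it, the nearest genes outside the complement list were *Ccdc84* (distance 0.04), *Coch* (0.07), *Sdc1* (0.07), *Cmtm3* (0.08) and *Amhr2* (0.08), where the median over all tested genes was 0.69. *C1qc*, which is part of the mean profile, was at 0.10 and ranked 17 of 13652, with *C1qa* at 0.18 and *C1qb* at 0.20. Among the other genes of the 9, *C3ar1* was nearest at 0.27 and *Serping1* next at 0.34, with *C5ar1* at 0.64, while *C4b*, *C3* and *C2* were at 0.75, 0.87 and 0.88, farther than the median gene.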

How the data were processed

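Soleus RNA in 4 libraries from *mdx* mice was sequenced as single-end reads. The authors aligned reads with Bowtie 2 to UCSC transcripts (2.1.0 in the submitters' processing notes, build mm10) and deposited RSEM (1.2.15) expected counts per gene symbol without normalization, 15.7% of them not whole. The methods name an xGen library kit and the sample records a stranded mRNA kit. Whether counting used strand is not given in the sources used here.

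Counts were rounded, filtered with filterByExpr, scaled by trimmed mean of M-values and tested with edgeR 4.0.16 (R 4.3.3, quasi-likelihood, legacy = FALSE, a prior count of 2 for log2 CPM) on 13652 genes. Standard errors are the log2 fold change over the square root of F. Genes were called at 1.5-fold and an unadjusted p under 0.05. No gene had an adjusted p under 0.05, 947 had an unadjusted p under 0.05, and with DESeq2 1.42.0 48 had an adjusted p under 0.05. The procedure was tested on simulated data. Named genes were the 9, called or role-defining list members, the 5 genes nearest in profile and markers a result turns on; others (*C7*, *C8a*, *C8b*, *C8g*, *Hc*, *Masp1*, *Zbtb12*) were named after their values were seen. 1 further complement gene is not reported here and was left out of the list counts and plots. Members and lists were chosen with earlier results of these data known.

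Lengths, coordinates and transcripts came from GENCODE M21 (GRCm38), which matched 22750 of 24054 symbols by name and 916 by an older name. Upstream sequences came from RefSeq (GRCm38.p6), which matched 5 of the 9 genes. Alternatives were DESeq2, RLE size factors, other filters, the legacy test, a replicate block, a correction for a trend with gene length and GC content, *C4a* summed with *C4b*, and each library left out. Values relative to the macrophage marker median were added after seeing the data.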

Additional observations from a re-analysis of the deposited data

How the results depend on the processing

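With each library left out in turn, all genes called higher ran from 112 to 397 and lower from 236 to 834, the 9 complement genes called higher stayed at 0 and those called lower ran from 0 to 1 (*C3* without mCDC replicate 2, *C1qb* without vehicle replicate 1), the 57-gene list ran from 1 to 2 called higher and from 0 to 5 lower (2 and 5 without vehicle replicate 1, where 1.95% and 5.97% of all genes were), and medians of the 9, of that list and of the macrophage markers ran from -0.40 to 0.22, from -0.38 to 0.11 and from -0.38 to 0.13. A lone library was then assumed to vary like the other group. Why these values changed was not tested. The same ranges ran from -0.28 to 0.57 for *C1qa*, from -0.65 to 0.31 for *C1qb*, from -0.36 to 0.32 for *C1qc*, from -0.24 to 0.06 for *C4b*, from -0.44 to 0.0041 for *Serping1*, from -0.70 to 0.22 for *C3ar1* and from -0.25 to 1.2 for *C5ar1*. *C1qa* was negative without vehicle replicate 1, and at -0.0014 with the length and GC trend removed. *C1qb*, *C1qc*, *Serping1* and *C3ar1* were positive without vehicle replicate 2. *C4b* was at 0.06 without mCDC replicate 2 and 0.03 without vehicle replicate 1, and *C5ar1* at -0.18 without mCDC replicate 1 and -0.25 without vehicle replicate 1. Relative to the macrophage marker median, *C1qc* was at 0.13, *C4b* at 0.11 and *C3* at -0.30.

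Under RLE size factors, both other filters, DESeq2, the legacy test, the replicate block and the length and GC trend, 0 of the 9 were called, as in the main analysis, and *Clu* stayed called. With the replicate block *C3* was at -0.49 and *C1qa* at 0.14, and no member's call changed. Same-numbered libraries did not deviate together when taken over all genes (r = -0.04 over 13652 genes). With 2 libraries per group this cannot exclude a pairing that moved few genes or moved them little. Counting error is widest for *C2*, *C3ar1* and *C5ar1*, with 10 to 72 counts per library.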
